A study of Mus musculus with 9 samples.

Results

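The comparison was restricted to mammary tumours diagnosed as adenocarcinoma of no special type, AC(NST), so that the histotype was the same on both sides. Of the 9 tumours in the series, 6 carried this diagnosis: 1, MS1166.1, was labelled not/low for amplification of the Erbb2/Neu locus, and 5, MS1213.1, MS1163.1, MS1163.2, MS1218.2 and MS1155.3, were labelled high. All 6 arose in BlgCre-NeuKI mice, heterozygous for a Cre transgene under the beta-lactoglobulin promoter, which is active in luminal mammary cells, and for an activated Neu allele placed in the endogenous Erbb2 locus behind a loxP-flanked stop cassette, on a mixed FVB/C57Bl6 background. Once the cassette is removed, Neu is driven by the Erbb2 promoter. MS1166.1 came from a parous mouse. Of the high-amplified tumours, MS1218.2 and MS1155.3 came from parous mice and 3 from virgin mice, and MS1163.1 and MS1163.2 carried the number of 1 mouse. The 2 not/low-amplified adenosquamous carcinomas (ASQC), MS1210.1 and MS1349.1, both from parous mice, are cited only as values set beside these.

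ERBB2 (HER2; Neu in the rat) is a receptor tyrosine kinase with no known ligand of its own, which signals by pairing with EGFR, ERBB3 or ERBB4 once those bind ligands such as amphiregulin or the neuregulins. Its activation feeds the RAS, RAF, MEK and ERK cascade, whose output switches on its own brakes, the dual-specificity phosphatases and Sprouty proteins, and Ets factors of the ETV1, ETV4 and ETV5 family. In breast cancer the gene is amplified in blocks that take in neighbouring genes, among them Grb7, which codes for an adaptor that binds activated receptors.

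Because 1 tumour stood alone on one side, each gene was placed first by whether its value in MS1166.1 lay above or below all 5 high-amplified tumours. Values are normalized counts, the reads on a gene divided by a size factor for each tumour, and those of the high-amplified tumours are given in the order MS1213.1, MS1163.1, MS1163.2, MS1218.2 and MS1155.3. A 1 against 5 permutation cannot give an exact p below 0.167, so the only test was edgeR's quasi-likelihood test across all genes, which takes its estimate of spread from the high-amplified tumours and calls a gene at an adjusted p below 0.05 and a change of more than 1 on the log2 scale. What belongs to low amplification and what belongs to this single tumour cannot be told apart.

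Depth lay between 12501225 and 18327792 reads on genes, with 15265197 in MS1166.1. Among the high-amplified tumours, MS1218.2 had the highest summed macrophage markers, 95108 against a median of 17212, and MS1163.2 had the highest summed skeletal muscle markers, 27578 against a median of 277. The diagnosis of MS1166.1 was checked against squamous and cornified markers: their sum was 3265 in MS1166.1, within the 1761 to 5111 of the high-amplified AC(NST), and 70866 and 33309.7 in the ASQC. By member, 4 of the 10 tested markers lay above all 5 high-amplified tumours and 0 below, against 27.6% and 26.2% of all genes. The 4 were Abca12 (3.94-fold over the highest), Sbsn (1.76), Tgm1 (1.42) and Krt16 (1.11). A further 15 had too few reads to be tested.

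Genes called as higher included Perp, of the desmosome, Fbn2, of elastic microfibrils, and the Notch targets Hey2 and Nrarp, and genes called as lower included the adhesion molecule Chl1 and the nuclear receptor Esrrg. All 13 luminal markers, 25 of 30 replication genes and 13 of 23 interferon-stimulated genes lay above every amplified tumour, and 10 of 20 ERK feedback and Ets genes and 10 of 12 fibroblast markers below every one, with no member of these lists called. Of 13822 genes with a mean of at least 10 normalized counts, 3813 (27.6%) lay above all 5 high-amplified tumours and 3617 (26.2%) below all 5, together 53.8%. Lying 2-fold or more outside the range, with 10 added to every value, held for 764 genes above (5.53%) and 1012 below (7.32%), together 12.8%. With 50 added instead, 655 genes lay above and 536 below by 2-fold, and with 1 added 794 and 1453, so that which side held more genes depended on this choice. The edgeR test called 69 genes higher in MS1166.1 (0.499%) and 14 lower (0.101%), together 0.6%, with a smallest adjusted p of 0.00967. All 83 called genes also lay outside the range on the same side. The median log2 fold change over all genes, MS1166.1 minus high, was -0.08, and list medians below are to be read against it. DESeq2 called 478 higher and 956 lower (together 10.4%), and edgeR with parity as a covariate called 0, with 2428 genes at an unadjusted p below 0.05, against 2635 (19.1%) without it. Without MS1218.2 the test called 466 genes, and leaving out any other high-amplified tumour left between 19 and 23. The 13 genes called in the fit of 6 tumours and in all 5 fits that left out an amplified one were Armcx4, Fmo1, Fmo2, Gm266, Hey2, Igsf1, Pdk4, Perp, Ptn, Rhov, Tex11, Tmem132e and Ttyh1. The other 70 lost the call in at least 1 of those 5 fits.

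Erbb2 was examined first as a check on the labels, which rest on quantitative PCR of genomic DNA. In the study, digital droplet PCR did not match this PCR for MS1218.2 and MS1213.1. Copy number from exome sequencing matched this PCR for MS1213.1 but not for MS1218.2. MS1218.2 was also the exception in an estimate of tumour cell purity. Both tumours are kept here in the group of their label. Erbb2 lies on chromosome 11 (chr11:98412470-98437716, GRCm38, plus strand) and was lowest in MS1166.1, at 1532 normalized counts against 51764, 5284, 6688, 15261 and 105019 in the high-amplified tumours. The high-amplified tumours thus spread over a wide range, with MS1155.3 and MS1213.1 far above the pair from mouse MS1163, and MS1166.1 lay 3.45-fold under the lowest of them. The fitted change was -4.56 ± 2.11 on the log2 scale and did not pass the edgeR test (adjusted p = 0.281). It passed under DESeq2 (adjusted p = 0.00686). The ASQC held 2783 and 1943. The Neu allele carries the rat sequence, whereas reads were aligned to the mouse genome. How many Neu reads these Erbb2 values hold was not tested.

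The genes next to Erbb2 followed it to different distances. Grb7, the adaptor, was at 842 in MS1166.1 against 6476, 12343, 11599.9, 9759 and 6797 (log2 fold change -3.46 ± 0.71, edgeR adjusted p = 0.0828). Mien1 was at 590 against 3136, 44357, 47600, 34518 and 7945. Neither gene overlapped between the groups. Of 28 measured genes of the region 9 lay below every amplified tumour, against 26.2% of all genes, and Grb7, Mien1 and Erbb2 were the 3 that did so by 2-fold (5 genes with 1 added in place of 10), against 7.32%. Ormdl3, further along, was at 431 against 12255, 866, 26152, 24577 and 25421, so that MS1163.1 came close to MS1166.1. On the other side of Erbb2, Stard3, which codes for a lipid-transfer protein of endosomes, was at 1038 against 577, 24420.2, 26988, 18529.8 and 594, which put MS1166.1 above MS1213.1 and MS1155.3. Pgap3 showed the same order, at 567 against 248, 8768, 11579, 15888 and 243. Med1 and Cdk12, which code for parts of the transcription machinery, were far higher in MS1218.2 than in the other 5, at 33506 and 18647 against at most 3073 and 3011 in the other amplified tumours and 1926 and 1375 in MS1166.1. Psmd3 was the 1 gene of the region above the range, at 2711 against at most 2486, and 18 genes were within it. None of the 28 was called by edgeR, and DESeq2 called 5, against 10.4% of all genes. The median over the region was -1.85 on the log2 scale, or -1.73 with the genes at 0 in MS1166.1, such as Gsdma3 and Zpbp2, set to a floor of 3 counts in that library.

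**Figure D1:**
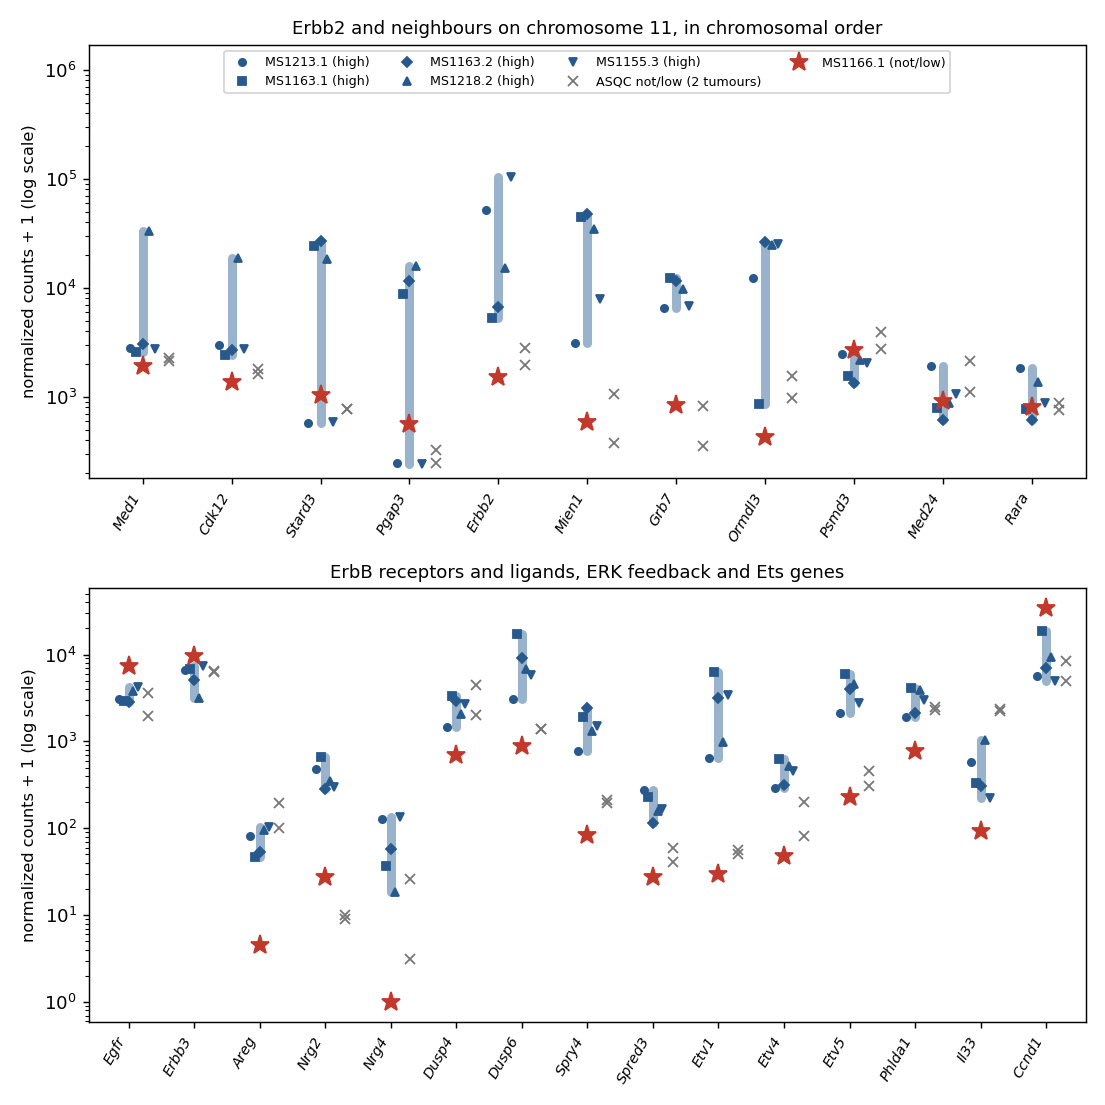
Normalized counts plus 1, on a log scale, for genes around Erbb2 in chromosomal order (top) and for ErbB receptors and ligands, ERK feedback and Ets genes (bottom). The star is MS1166.1, small symbols are the 5 high-amplified AC(NST), the bar their range, and crosses the 2 ASQC. Erbb2, Mien1 and Grb7 lie below the bar in MS1166.1, Stard3 and Pgap3 within it, and Etv5 at 229.6 against at least 2114.

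Of the other ErbB receptors, Egfr was higher in MS1166.1 than in any amplified tumour, at 7279 against 3058, 2915, 2838, 3795 and 4268, and so was Erbb3, the neuregulin receptor that pairs with ERBB2, at 9733 against 6579, 6876, 5151, 3196 and 7438. Neither was called (edgeR adjusted p = 0.204 and 0.442). Per kilobase of exon, the medians over the amplified tumours were 2929 normalized counts of Erbb2, 270 of Egfr and 1094 of Erbb3, and MS1166.1 held 294, 643 and 1618, so that Erbb2 was the highest of the 3 by these medians and the lowest in MS1166.1. In MS1163.1, however, Erbb3 (1143 per kilobase) lay above Erbb2 (1014). Reads of the rat Neu allele may be missing from the Erbb2 values, so this ranking is uncertain. The ligand genes were mostly lower: of the 10 tested, 9 lay below the range, against 26.2% of all genes, and 1, Btc, for betacellulin, above it. For some the margin was small, Egf lying 1.02-fold and Tgfa 1.22-fold under the lowest amplified tumour. Areg, for amphiregulin, was at 3.57 against 79.9, 45.1, 52.2, 95.3 and 102. The neuregulin genes Nrg2 and Nrg4 were at 26.2 and 0, against at least 283 and 17.6. For Nrg2 the ASQC held 9.14 and 8.04, lower still, while for Areg they held 194 and 98.6, above and within the range of the amplified AC(NST). No gene of this group was called by edgeR (smallest adjusted p 0.0767, Nrg2), where DESeq2 called 5 of 14, against 10.4% of all genes.

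Of 20 tested feedback and Ets genes of the ERK cascade, 10 lay below every amplified tumour, against 26.2% of all genes, and 9 of the 10 did so by 2-fold, against 7.32%. The 9 were Dusp4, Dusp6, Spry4, Spred3, Etv1, Etv4, Etv5, Phlda1 and Il33. Dusp6, the phosphatase that removes the activating phosphates from ERK, was at 891 against 3113, 17137, 9117, 6786 and 5869.9. Spry4, a Sprouty inhibitor of receptor signalling to RAS, was at 83.3 against 776, 1883, 2407, 1315 and 1516 (log2 fold change -4.22 ± 0.79, edgeR adjusted p = 0.0663). Etv5 was at 229.6 against 2114, 5962, 4033, 4589 and 2760.4 (edgeR adjusted p = 0.0765) and Etv4 at 46.4 against 288, 631, 317, 522 and 455. For these genes the lowest amplified tumour was MS1213.1 and the highest was one of the pair from mouse MS1163, and none of the ranges reached MS1166.1. The order did not follow Erbb2, which was lowest among amplified tumours in MS1163.1. The ASQC held 454 and 302 of Etv5, 193 and 212 of Spry4 and 1400.3 and 1403 of Dusp6, also below all 5 high-amplified AC(NST), which serve as the reference for both.

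Not every gene of this list was low. Spry2, Spred1, Dusp5 and the immediate early gene Egr1 lay within the range, and Ccnd1, for cyclin D1, which carries cells out of G1, was above it at 34169.8 against 5589, 18725, 6908, 9466 and 5008. None of the 20 was called by edgeR and DESeq2 called 9. Their median was -1.09 on the log2 scale. The count of 9 did not change without MS1218.2 or without MS1163.2, and with 1 or 50 added to each value it was 9 and 8, against 10.5% and 3.88% of all genes.

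Notch receptors, when bound by a Delta or Jagged ligand, release an intracellular part that joins the DNA-binding protein RBPJ and switches on genes of the Hes and Hey families and Nrarp. Hey2 was at 1525 in MS1166.1 against 23.1, 78.7, 34.8, 33.3 and 34.8 in the amplified tumours (log2 fold change 5.24 ± 0.54, edgeR adjusted p = 0.012). Nrarp, for a feedback inhibitor of the pathway, was at 12873 against 186, 484, 127, 639 and 144 (log2 fold change 5.36 ± 0.75, edgeR adjusted p = 0.036). Both were called, and they were the only ones of the 18 tested members that were, against 0.499% of all genes called as higher. Hey2 kept its call whichever amplified tumour was left out, whereas Nrarp lost it without MS1213.1, MS1163.1, MS1163.2 or MS1155.3 (adjusted p up to 0.0802). Hes5 was at 94.0 in MS1166.1 and at 0 in all 5 amplified tumours and both ASQC, with an edgeR adjusted p of 0.0872. Hes1 and Hey1 were above the range as well, at 2261 against at most 1221 and 5661 against at most 3184. Of the receptor genes, Notch1 was within the range, at 12743 against 2597 to 13100.1, and Notch3 above it at 11139.7 against at most 8284. The ligand gene Dll1 lay on the other side, at 34.5 against 1629, 2788, 348, 1276 and 1028, and Dll4 and Jag2 lay below the range too. The list had 7 of 18 members above and 4 below the range, against 27.6% and 26.2% of all genes, and without MS1218.2 the members above by 2-fold went from 3 to 5.

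Short stretches of the promoters of Hes5 and Hey2 are shown because both genes were above every amplified tumour and hold the RBPJ motif GTGGGAA, which was searched on both strands of 300-base RefSeq promoters, GRCm38.p6, from 250 bases before to 50 after the start. Motif letters are in capitals, with all 3 motif searches of the text chosen after the values were seen.
Hes5 (chr4:154960815-154960871, plus strand): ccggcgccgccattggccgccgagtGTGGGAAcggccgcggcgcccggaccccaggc
Hey2 (chr10:30842959-30843015, minus strand): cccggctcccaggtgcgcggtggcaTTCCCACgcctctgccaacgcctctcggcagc
The motif stood in 3 of 14 promoters matched to tested genes of the list, Lfng being the other, and in 6.38% of all 32851 promoters. Of the 5 matched genes above the range, Hes5 and Hey2 held it. Lfng was below the range. Hes5 held another match, further from the start (chr4:154960673-154960728), which is not shown.

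Retinoic acid is made from retinol by retinol dehydrogenases such as RDH10 and retinaldehyde dehydrogenases such as ALDH1A3, and acts through receptors that raise their own gene Rarb and the gene for the degrading enzyme, Cyp26a1. All 4 of these genes were above every amplified tumour by 2-fold. Rarb was at 1089.6 against 47.2, 179, 150.4, 56.5 and 30.9 (log2 fold change 3.58 ± 0.76, edgeR adjusted p = 0.0872). Aldh1a3 was at 3614 against 293, 390.3, 222, 833 and 636 (edgeR adjusted p = 0.0812) and Rdh10 at 3357 against 618, 719.8, 1297, 505 and 582 (edgeR adjusted p = 0.0872). These 3 missed the threshold, and for each the amplified tumours were well under MS1166.1. Cyp26a1 was at 203 against 27.0, 2.10, 1.24, 72.2 and 33.5. Stra6, the cell-surface receptor for retinol-binding protein, was at 177 against at most 80.9, far under the 19029 and 5832 of the ASQC. The receptors Rara, Rarg and Rxra lay within the range. In all, 6 of 17 tested genes were above the range, against 27.6% of all genes, 5 of them by 2-fold, against 5.53%, and none was called.

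The promoters of Rarb and Cyp26a1 are shown because they share a direct repeat of the retinoic acid response element, searched as GTTCA, any 5 bases and AGTTCA on both strands of the same promoters, with the fixed letters in capitals.
Rarb (chr14:16575488-16575553, minus strand): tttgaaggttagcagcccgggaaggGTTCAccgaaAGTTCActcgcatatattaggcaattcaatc
Cyp26a1 (chr19:37697751-37697807, plus strand): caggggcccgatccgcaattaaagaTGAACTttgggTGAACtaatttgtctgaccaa
The repeat was present in these 2 of the 13 list promoters matched and in 11 of all 32851 (0.0335%). In Cyp26a1 it lies on the other strand, so the capitals spell its reverse complement, as they do in Hey2 above.

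**Figure D2:**
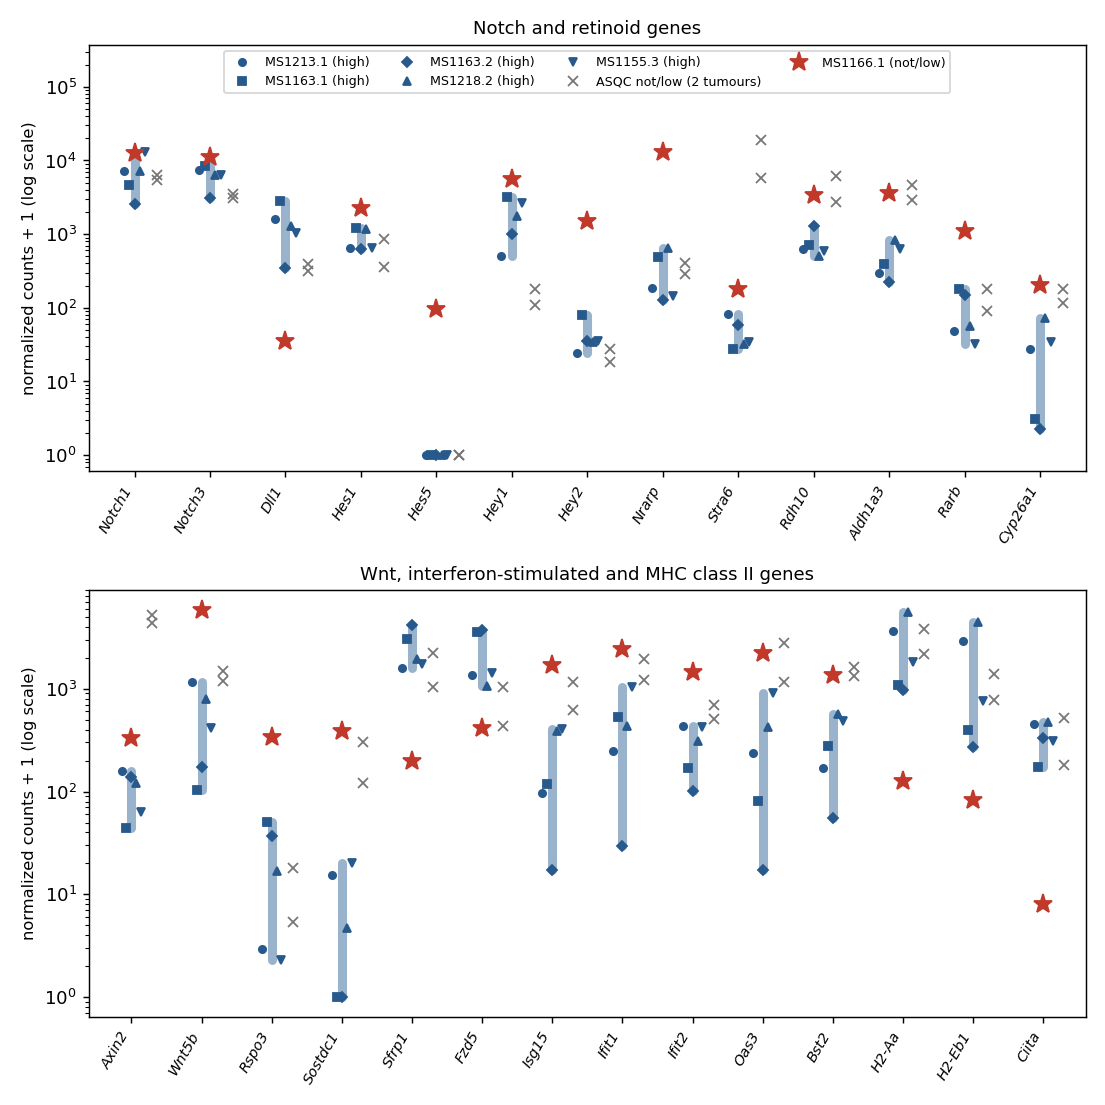
Normalized counts plus 1, on a log scale, for Notch and retinoid genes (top) and for Wnt, interferon-stimulated and MHC class II genes (bottom). The star is MS1166.1, small symbols the 5 high-amplified AC(NST), the bar their range and crosses the 2 ASQC. Hey2, Nrarp, Rarb and Aldh1a3 lie above the bar in MS1166.1, and Dll1, Sfrp1 and the class II genes below it. Axin2 lies at 328, above the bar and under both ASQC.

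Wnt ligands act through Frizzled receptors to stabilise beta-catenin, whose target Axin2 is a common readout of the canonical branch. Axin2 was at 328 in MS1166.1, above the 43.0 to 158 of the amplified tumours, while the ASQC held 4341 and 5250.1. Of the study's other canonical targets, Myc and Tcf7 lay above the range, by 1.52- and 1.04-fold. Wif1, too low in these tumours to be tested, was at 4.76, within the 0.963 to 21.1 of the amplified tumours. The ASQC held 1507 and 931 of it. Notum was at 0, against at most 6.44 in the amplified tumours and 539 and 250 in the ASQC. Wnt5b was at 5840.5 against 1160.5, 103, 172, 784 and 415, and Rspo3, which codes for an R-spondin that strengthens Wnt responses, at 337 against 1.93, 49.3, 36.0, 15.7 and 1.29. Both were more abundant in MS1166.1 than in either ASQC, which held 1479.8 and 1183 of Wnt5b. Sostdc1, for a secreted antagonist of BMP and Wnt, was at 389 against at most 19.3. Other members lay on the low side: Sfrp1, for a secreted Wnt antagonist, was at 199 against 1599, 3045, 4142, 1957 and 1751 (edgeR adjusted p = 0.0852), Fzd5 at 413 against at least 1057, Fzd9 at 1.19 against up to 404, with none of the amplified tumours as low, and Tnfrsf19, a target gene, at 169 against at least 351. Among feedback and target genes 8 of 18 were above and 5 below, among ligands 1 of 9 above and 3 below, and among receptors and inhibitors 7 of 17 above and 7 below, against 27.6% above and 26.2% below over all genes. None of these genes was called, and Lef1, Lgr5 and Znrf3 lay within the range.

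Genes of DNA replication and mitosis were higher in MS1166.1 in 25 of 30 cases, against 27.6% of all genes above the range, with none below. The replicative helicase gene Mcm6 was at 5298 against 558, 1402, 1402, 765 and 678 (log2 fold change 2.49 ± 0.50, edgeR adjusted p = 0.0782). Birc5, for survivin, was at 952 against 274, 320, 306, 188 and 225, and Aurkb, for the Aurora B kinase, at 1181 against 89.6, 318, 455, 271 and 185. MS1163.2 was the highest amplified tumour for Mcm4 and Pcna, and without it the members above by 2-fold went from 7 to 19. Mki67, the proliferation marker, was within the range at 3619.7 against 1726 to 6246, as were Top2a, Rrm2, Ccne1 and Ttk. The median of the list was 1.58 on the log2 scale and none was called, though Hmgb2, a chromatin gene outside the list and named after its value was seen, was (3499.5 against at most 671, edgeR adjusted p = 0.0494, and up to 0.104 with an amplified tumour other than MS1218.2 left out).

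The histone genes expressed with DNA replication, taken after their values were seen as every gene whose symbol begins Hist1 to Hist4, gave 42 of 44 tested above the range and 35 by 2-fold, against 27.6% and 5.53% of all genes, with a median of 2.54. Hist1h1a was at 12383 against 382 to 2734 and Hist1h2ab at 4257 against 215, 694, 810.3, 647 and 466. The summed normalized counts were 242065 in MS1166.1 against 18902 to 78955. None was called by edgeR, and DESeq2 called 29, against 10.4% of all genes. Their transcripts lack poly(A) tails and are kept by the rRNA depletion used here, the copies are close to identical, and how the RNA preparation bears on these counts was not tested.

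Cyclin D1 was accompanied by other G1 genes. Cdk4, Cdk6 and Myc lay above the range, as did Mycl, at 583 against 10.6, 4.20, 6.21, 37.0 and 27.1, whereas Ccnd2, for cyclin D2, lay below it at 120.1 against 683, 654, 737, 1148 and 447. The cell-cycle inhibitor genes Cdkn1b, Cdkn2c and Cdkn2d were above the range too, by 1.96-, 1.38- and 2.12-fold. Of the 18 tested members of this list 9 were above and 1 below, against 27.6% and 26.2% of all genes. Among p53 targets, Perp stood out. Perp, a p53-responsive membrane protein of desmosomes, was at 81323 against 1065, 2687, 2315, 1992 and 2098 (log2 fold change 5.35 ± 0.51, edgeR adjusted p = 0.00967), 30.3-fold over the highest amplified tumour, and the ASQC held 9718 and 4158. It was called in the fit of 6 tumours and in each of the 5 fits that left out an amplified tumour. Of the other 17 targets, 7 were above the range, against 27.6% of all genes, without a call. Cdkn1a and Ccng1 were within it, Mdm2 was below it at 911 against at least 997, and Bax was above it at 1168 against at most 754.

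MS1166.1 had more RNA of the 13 general luminal markers than any amplified tumour and less of most stromal ones. The alveolar and hormone-sensing luminal lists, given below, went the other way, with medians of -0.96 and -1.71 on the log2 scale. All 13 luminal markers were above the range, 8 by 2-fold, against 27.6% and 5.53% of all genes. Krt19 was at 25709 against 4057, 98.6, 232, 3792 and 1838, Muc1 at 2117 against 269, 145, 52.2, 459 and 222 and the tight junction gene Cldn4 at 10013 against 1488, 510, 3368, 2623 and 1421. Krt8 was at 37468 against at most 17899. In bulk RNA, fewer cells of a type and less RNA per cell cannot be told apart. The summed luminal markers were 183672 in MS1166.1 against 54423 to 71383, and those of the ASQC were 132953 and 118621.

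Markers of other cells were measured beside this. Of 12 fibroblast markers 10 lay below the range, among them Col1a1, Dcn and Fap, with a summed level of 54421 against 47603 to 402179, and Postn was the 1 marker above the range, at 24854 against at most 22144. Of 12 macrophage markers 10 lay below, with a sum of 11549 against 11699 to 95108. All 11 tested adipocyte markers lay below, with a sum of 302 against 977 to 8027 and Retn at 0. Of 12 endothelial markers 7 lay below. The collagen genes were below in 13 of 19 cases. Against these counts stand 26.2% of all genes below the range. The part of the cell mixture in each difference above was not tested. None of the cell type markers was called by edgeR apart from Cdh19, which is used as a Schwann cell marker. DESeq2 called 6 of 13 luminal, 6 of 11 adipocyte and 4 of 12 fibroblast markers, against 10.4% of all genes. It called 1 of 12 macrophage and 1 of 12 endothelial markers. S100b and Sox10 of the Schwann cell list were also below, at 3.57 against at least 114 and 666 against at least 2208, while Erbb3 and Mbp were above the range.

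**Figure D3:**
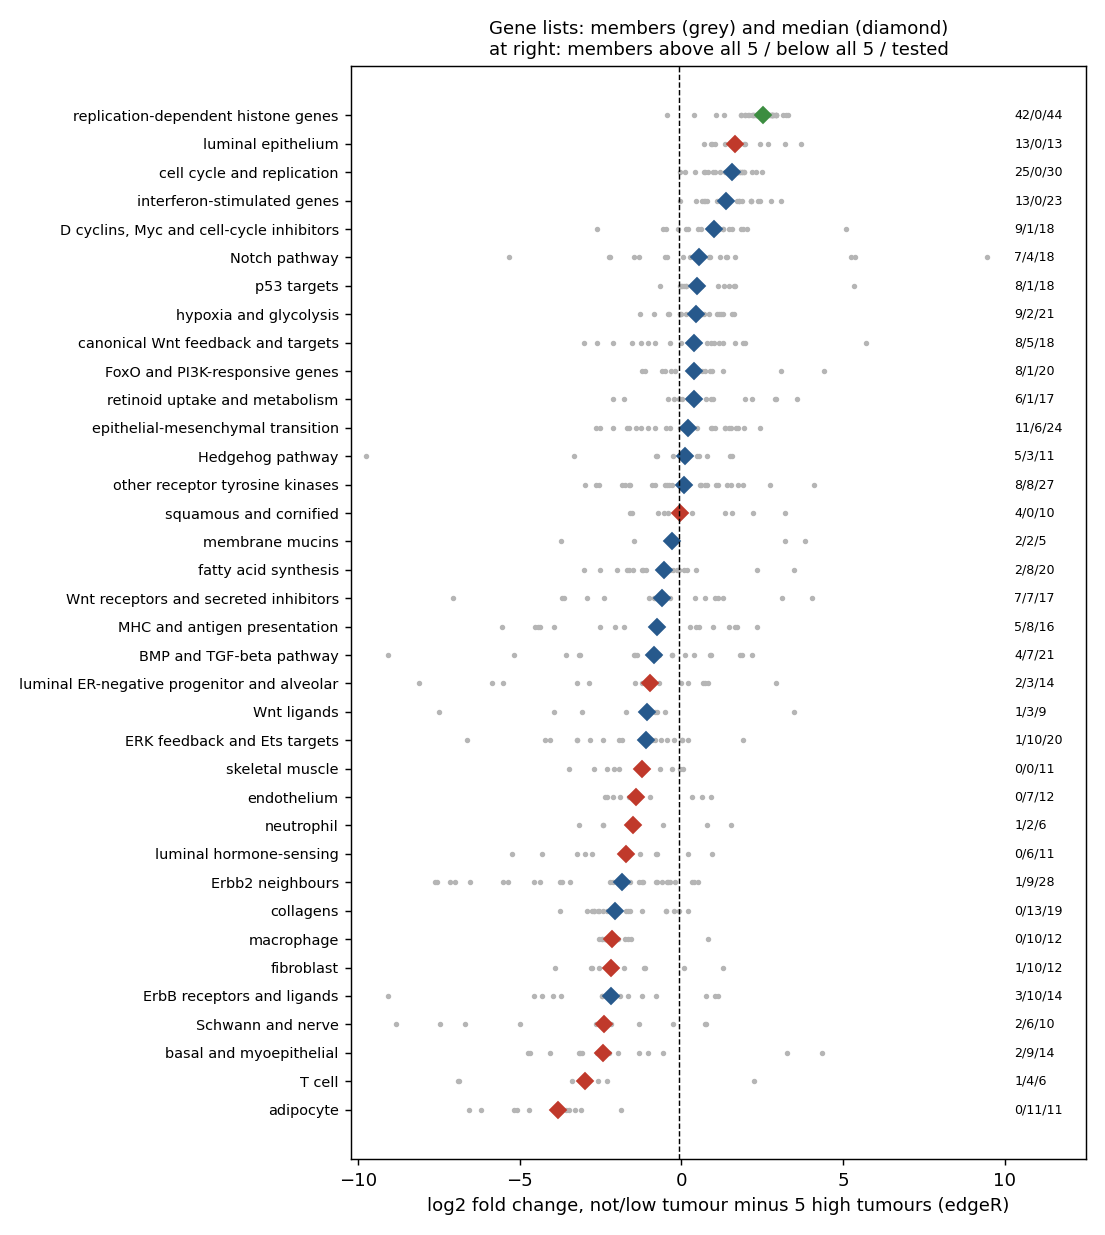
Log2 fold changes, MS1166.1 minus the 5 high-amplified AC(NST) (edgeR), for members of each list (grey) with the list median (diamond: pathways blue, cell types red, histone genes green) and the median of all genes (dashed line, -0.08). The counts at right are members above all 5, below all 5 and tested. Histone, luminal and cell cycle genes lie on the high side and adipocyte genes on the low side.

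Basal markers were divided. Krt14 and Krt17 were above the amplified tumours, at 6495 against 1703, 7.35, 38.5, 242 and 1449 and 8476 against 288, 153, 59.7, 453 and 1135 (edgeR adjusted p = 0.0938 for Krt17), while Krt5, which usually pairs with Krt14, was at 11.9 against 154, 12.6, 43.5, 30.5 and 1392 and Trp63, the basal transcription factor, at 13.1 against at least 32.4. The ASQC held 2602 and 1670.2 of Krt5. In all, 9 of 14 basal markers were below the range, against 26.2% of all genes, and the list had a median of -2.41. Of 14 tested alveolar and luminal progenitor genes, 2 were above the range and 3 below, against 27.6% and 26.2% of all genes. Their summed level was 38268 against 58826 to 280033. Csn3 and Xdh were below, at 1513 against at least 24620.2 and 1103 against at least 7029.8. Lalba was below too, 13.3-fold under the lowest amplified tumour. Kit and most casein genes were within the range. Elf5, the alveolar transcription factor, was above at 5092 against at most 4584.

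Genes induced by type I interferon were above the range in 13 of 23 cases, against 27.6% of all genes, 7 by 2-fold, and none was below. Isg15, a ubiquitin-like modifier, was at 1715 against 96.3, 118, 16.2, 391 and 406, and Ifit1, which binds foreign RNA, at 2408 against 248, 529.9, 28.6, 431 and 1038. Ifit2 was at 1465 against 429, 167, 101, 306 and 426. MS1163.2 was the lowest amplified tumour for Isg15, Ifit1 and Ifit2 and MS1155.3 held the most Isg15 and Ifit1, so that the amplified tumours themselves spread over more than an order of magnitude. Oas2, Stat2 and Ifi44 lay within the range, with MS1155.3 above MS1166.1 for each. The ASQC held 1147 and 622 of Isg15. None was called (smallest adjusted p 0.132, Ifit2), and the list median was 1.37.

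The stretches shown for this group hold the interferon-stimulated response element, searched as GAAA, any 2 bases and GAAACT on both strands, in promoters of 4 genes above the range by 2-fold, fixed letters in capitals; in Ifit1 and Ifit3 they spell the reverse complement.
Ifit1 (chr19:34640777-34640838, plus strand): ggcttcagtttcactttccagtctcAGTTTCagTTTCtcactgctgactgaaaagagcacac
Ifit3 (chr19:34583346-34583407, plus strand): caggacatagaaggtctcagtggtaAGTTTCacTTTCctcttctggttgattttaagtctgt
Bst2 (chr8:71537566-71537627, minus strand): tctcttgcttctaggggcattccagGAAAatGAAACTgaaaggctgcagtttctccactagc
Cxcl10 (chr5:92349066-92349127, minus strand): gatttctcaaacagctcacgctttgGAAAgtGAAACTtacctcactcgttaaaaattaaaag
It stood in 8 of 19 matched list promoters, 4 of the 12 of genes above the range and 4 of the 7 of genes within it, and in 0.271% of all promoters. The Ifit1 stretch holds another match, agtttcactttc, which is left in lower case above.

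The antigen-presentation genes lay on both sides. The class I processing genes Tap1, Tap2, Tapbp, Psmb8 and Psmb9 were above the range, Psmb8 at 4908 against 703, 885, 259.7, 1473 and 1559, while the class I chain genes H2-K1, H2-D1 and B2m were within it. The class II genes were below, as was Nlrc5, the activator of class I genes, at 187 against at least 265. H2-Aa was at 126 against 3610.4, 1079, 964, 5612 and 1811 and Cd74, for the invariant chain, at 229.6 against at least 1273. The transcriptional activator of class II genes, Ciita, was at 7.14 against 448, 171, 331, 476 and 307 (log2 fold change -5.56 ± 0.95, edgeR adjusted p = 0.0521). The 6 members below by 2-fold were H2-Aa, H2-Ab1, H2-Eb1, Cd74, Ciita and H2-DMa, out of 16 tested and against 7.32% of all genes. The summed macrophage markers, given above, were lowest in MS1166.1 by a small margin only, at 11549 against at least 11699. Their part in the class II values was not tested.

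The 15 genes with the widest gap on each side show how far single genes departed. Tex11, known for its role in meiosis, stood at 1612 normalized counts in MS1166.1 against 2.89, 3.15, 1.24, 4.63 and 0 in the amplified tumours (log2 fold change 9.27 ± 0.71 SE, edgeR adjusted p = 0.00967). Fmo2, a flavin-containing monooxygenase, was at 7377 against 73.2, 35.7, 103, 71.3 and 138 (log2 fold change 6.48 ± 0.52, edgeR adjusted p = 0.00967). Pdk4, the kinase that switches off pyruvate dehydrogenase, was at 2769 against 13.5, 15.7, 38.5, 58.3 and 27.1. All 3 were called, and in each the 5 amplified tumours lay together far below MS1166.1. Fbn2, which codes for the microfibril protein fibrillin-2, was at 28280.5 against 490.2, 192, 688, 718 and 219, and Eln, for the elastin laid down on such microfibrils and named here after its value was seen, at 30162 against 633, 675, 848, 2468 and 1166. Both passed the test, at edgeR adjusted p = 0.0148 and 0.0358. Fbn2 missed it without MS1213.1 (0.0518) and Eln without any of the amplified tumours but MS1218.2 (up to 0.0849). Alox12e, an epidermal lipoxygenase, was at 3245 against at most 18.5, while the ASQC held 127 and 519, so that its level also exceeded theirs. Of the other genes in this group of 15, Gm266, Akr1cl, Igsf1, Ccdc148, Apobec2, Cxcl17, Fgfbp1, Vit and Rhov were called as higher and Kcns1 was not (edgeR adjusted p = 0.0896), passing only without MS1218.2 or with parous tumours alone, MS1218.2 holding 112 of it against at most 3.85 in the other 4.

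**Figure D4:**
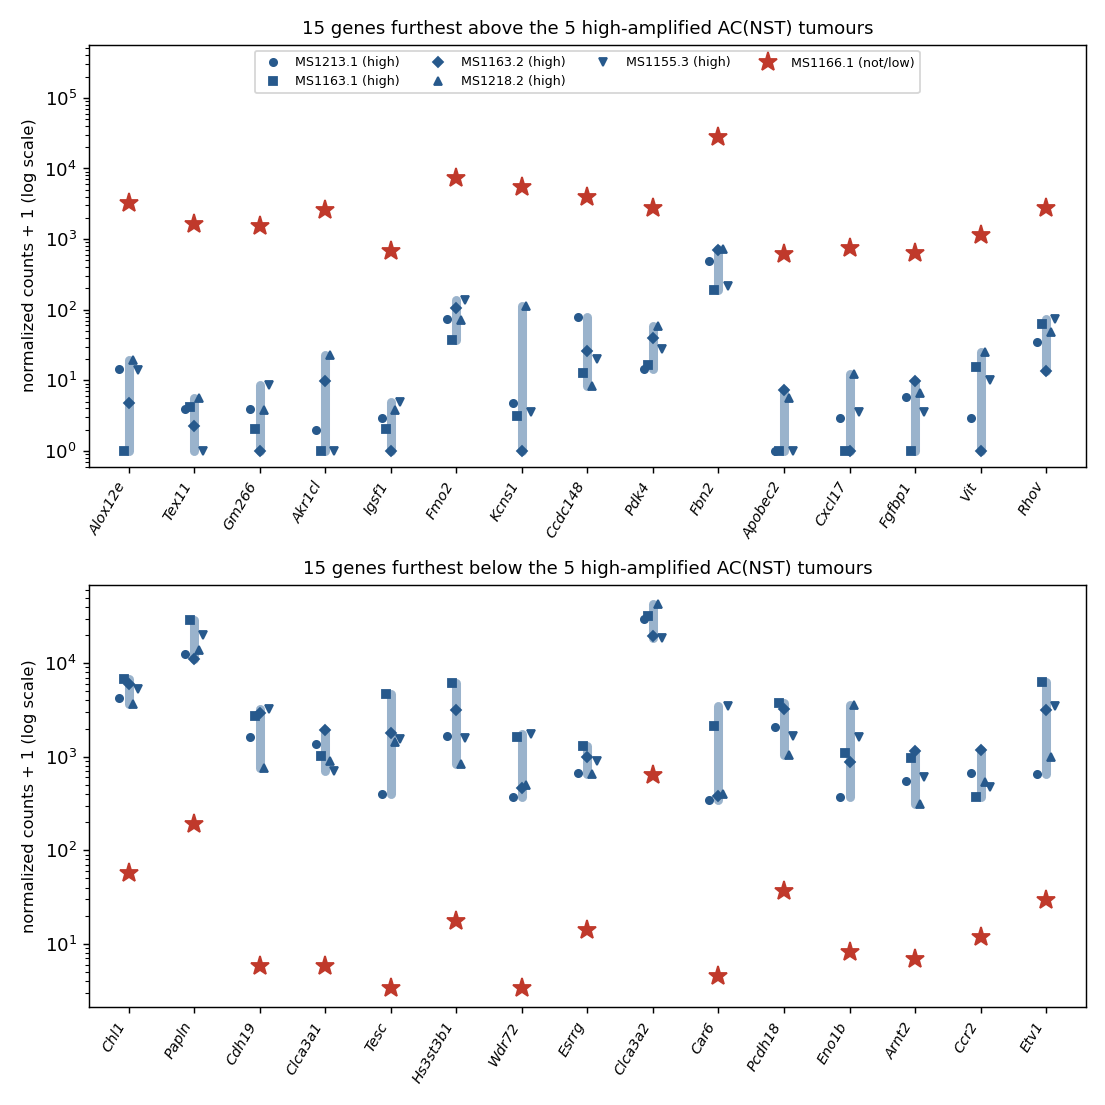
Normalized counts plus 1, on a log scale, for the 15 genes furthest above (top) and furthest below (bottom) the high-amplified tumours. The star is MS1166.1, the small symbols are the 5 high-amplified AC(NST) and the bar spans their range. Tex11 lies at 1612 for the star and no higher than 4.63 for the other symbols, and Chl1 at 55.9 against at least 3679.

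On the low side, Chl1, a neural cell adhesion molecule of the L1 family, was at 55.9 in MS1166.1 against 4240.3, 6828, 5944, 3679 and 5308 (log2 fold change -6.51 ± 0.75, edgeR adjusted p = 0.0204, or 0.0532 without MS1155.3). Papln, for the extracellular matrix protein papilin, was at 192 against 12564, 29184, 11138, 13863 and 19782 (edgeR adjusted p = 0.0464, and up to 0.0937 with an amplified tumour other than MS1218.2 left out). The 2 ASQC were also low in Papln, at 288 and 367, whereas for Chl1 they lay between, at 1476 and 1165. Cdh19, a cadherin, was at 4.76 against 764 to 3213, and the orphan nuclear receptor gene Esrrg at 13.1 against 660 to 1312. Both were called as lower, as were Clca3a1, Arnt2 and Ccr2, the chemokine receptor of monocytes. The remaining 8 of these 15, Tesc, Hs3st3b1, Wdr72, Clca3a2, Car6, Pcdh18, Eno1b and Etv1, did not pass, with edgeR adjusted p between 0.0509 and 0.131. Among the fits that left out an amplified tumour, Hs3st3b1, Clca3a2, Pcdh18 and Eno1b passed only in the fit without MS1218.2. That fit called far more genes in all. Clca3a1 and Clca3a2 are close relatives and Eno1b resembles Eno1, so reads that fit more than 1 copy were dropped by the unique-read counting and these levels are uncertain.

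Chromosome 4, singled out after the values were seen, had the highest median of the chromosomes. Its median log2 fold change was 0.40 over 856 tested genes, against -0.27 to 0.06 for the other autosomes and X. On chromosome 4, 37.3% of genes were above all 5 amplified tumours and 18.2% below, whereas the share above on the other chromosomes was 20.8 to 35.4%. Set against the median of the remaining high-amplified tumours, with 10 added to each value, the chromosome 4 median ratio was between 0.38 and 0.63 on the log2 scale whichever of them was left out. Isg15, Mycl and Hes5 lie on it. DNA copy number was not analysed here.

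**Figure D5:**
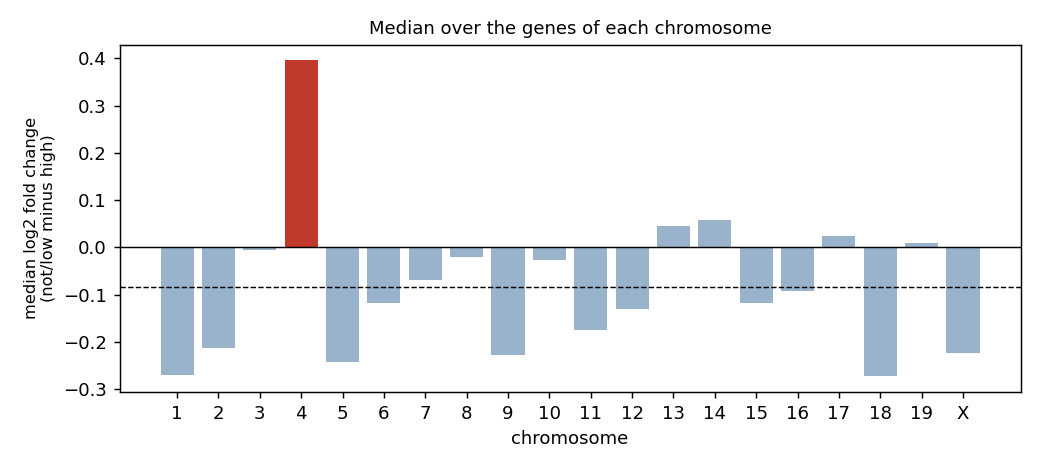
Median log2 fold change, MS1166.1 minus the 5 high-amplified AC(NST) (edgeR), over the tested genes of each chromosome, with chromosome 4 in red and the median of all genes as a dashed line. Chromosome 4 is at 0.40 and the others lie between -0.27 and 0.06.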

How the data were processed

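RNA-seq had been run on 9 mammary tumours, 1 library each, and 6 are compared here. Per the study's methods, rRNA-depleted total RNA was made into strand-specific libraries, reads were aligned with STAR to mouse build 38, keeping unique reads with at most 3 mismatches, and the authors counted reads on genes with HTSeq-count. Whether counting used strand is not given in the sources used here, so overlapping antisense genes cannot be separated. The deposited files hold these raw counts, and normalized values (unit: signal), which the authors made by dividing counts by 1 DESeq2 size factor per tumour over the 8 epithelial tumours. Amplification was labelled by the authors from genomic PCR.

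Genes with a mean of at least 10 normalized counts over the 6 tumours were tested. The range of the high-amplified tumours was read on log2(value + 10), and 2-fold outside it means 1 on that scale. Counts were tested with edgeR 4.0.16 (R 4.3.3; TMM, quasi-likelihood, Benjamini-Hochberg), with no block or covariate, and DESeq2 1.42.0 as an alternative. Each value after ± was back-calculated from the edgeR test, as the absolute log2 fold change over the square root of its F statistic. It is thus no separate estimate of spread. The design has 4 residual degrees of freedom, all among high-amplified tumours, and 2 of these share a mouse, so p-values measure the spread between those tumours. The scripts were tested on simulated data. Named genes are the 15 with the widest gap on either side, Erbb2 and its neighbours and list members, and any other gene is said to have been chosen after its values were seen. The members and lists were chosen with earlier results of these data known. Alternatives were upper-quartile and DESeq2 scaling, other filters and pseudocounts, the MS1163 pair summed, parous tumours only, parity as a covariate, 8 tumours, and each high-amplified tumour left out. Sequences are from RefSeq promoters, GRCm38.p6, from 250 bases before to 50 after the start site.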

Additional observations from a re-analysis of the deposited data

Results flagged for a closer look

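Among 196 genes named in the text, 10 had 1 high-amplified tumour far from the other 4 by Dixon's criterion on log2(value + 10), which chance gives in about 1 of 20 groups. The share of genes flagged was close to that rate. MS1218.2 was the highest for Med1 (33506 normalized counts), Cdk12 (18647), Emcn (642), Kcns1 (112) and Dlx6 (0.93, the others at 0), and the lowest for Mdm2 (997). MS1163.2 was the highest for Gsdma3 (122) and the lowest for Notch3 (3068). MS1163.1 was the lowest for Ormdl3 (866). MS1155.3 was the highest for Foxa2 (3.86), at which the other 4 were at 0. For Mdm2 and Ormdl3 that tumour's value was the one nearest to MS1166.1, and for Kcns1 it was the highest of the range that MS1166.1 exceeded.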

How the results depend on the processing

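The count of genes called by edgeR, 83, depended on the settings. It was 48 with upper-quartile scaling, 148 without a filter on low counts, 26 with the 2 tumours of mouse MS1163 summed, 418 (178 higher, 240 lower) with the parous tumours only, 178 with all 8 epithelial tumours, 1434 with DESeq2 and 0 with parity as a covariate (2428 genes at an unadjusted p below 0.05). Leaving out 1 high-amplified tumour at a time gave 19 to 466, the 466 without MS1218.2 and 19 to 23 without any other. All 48 genes called with upper-quartile scaling, and 25 of the 26 with the pair summed, were among the 83. The count outside the range by 2-fold, 1776, was 3026 with the parous tumours only, where the range spans 2 tumours, and stayed within 1.5 times under the other settings tried, as did the count outside the range, 7430, under all. Its split, 764 above and 1012 below, turned to 655 and 536 with a pseudocount of 50 and was 794 and 1453 with 1. Of the 2-fold list counts, recomputed without MS1163.2 and without MS1218.2 after seeing the data, those of the cell cycle (7 to 19 without MS1163.2), D cyclins (2 to 5, likewise), p53 targets and Notch genes (3 to 6 and 3 to 5 without MS1218.2) moved by over 1.5 times, and the others that did so started at 0 or 1 and reached at most 4. No single gene that was named with its test changed direction. Upper-quartile scaling moved the median of all genes to -0.20 and the absence of a filter to -0.30 on the log2 scale. No paired analysis was possible because the labels give no replicate numbers and 1 tumour stands alone. Leaving out MS1166.1 leaves no comparison. Genes with few reads are limited by depth, and the cause of these differences was not tested.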

Other observations

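Further groups of genes gave values that belong to no comparison above. Among receptor tyrosine kinases other than the ErbB family, 8 of 27 lay above the amplified tumours and 8 below, close to the 27.6% above and 26.2% below over all genes, against which the other counts here are also to be read. Ntrk3, a neurotrophin receptor, was at 221 against 9.63, 6.30, 12.4, 8.33 and 28.3 and Igf1r, the insulin-like growth factor receptor, at 1832 against 892, 382, 386, 779 and 759, while Axl was at 498 against 2464, 1545, 1237, 7594 and 1857 and Mst1r at 9.52 against at least 47.7. None was called. Of genes that respond to FoxO factors and PI3K, 8 of 20 lay above and 1 below, with Klf15 at 328 against 10.6, 5.25, 33.6, 16.7 and 12.9 (edgeR adjusted p = 0.0566). Among genes of fatty acid synthesis, 8 of 20 lay below, including Fasn, the fatty acid synthase, at 4678 against 19703, 11937, 12164, 5668 and 24249, and the desaturase genes Fads1 and Fads2 were the 2 above, Fads2 at 8164 against 789.7, 341, 374, 912 and 1283 (edgeR adjusted p = 0.054). Both Klf15 and Fads2 passed without MS1218.2, in a fit that called far more genes in all.

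Of 24 epithelial-mesenchymal genes, 11 lay above, among them Cdh1, for E-cadherin, and the tight junction gene Ocln, at 3174 against 1086, 806, 1302, 693 and 1097, and 6 below, among them Zeb1 and Zeb2, the latter at 320 against 2306, 1110.2, 1949, 3309 and 1385. Of 21 hypoxia and glycolysis genes 9 lay above and 2 below. Of 21 BMP and TGF-beta genes 4 lay above and 7 below, Inhbb, for an activin subunit, standing at 10851 against 973, 1901, 1082, 4516 and 3638, and Bmp7 at 1.19 against at least 22.1. Of 11 Hedgehog genes 5 lay above and 3 below, none by 2-fold. Among membrane mucins Muc1 and Muc4 lay above and Muc15 and Emcn below. Of 11 hormone-sensing luminal genes 6 lay below and none above, with Pgr, for the progesterone receptor, at 1.19 against 18.3, 3.15, 109, 22.2 and 100.5. Of 6 T cell markers 4 lay below and Lck above, of 2 B and plasma cell markers 1 lay below, of 6 neutrophil markers 2 lay below and S100a9 above, and of 11 skeletal muscle markers all lay within.

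Among the remaining called genes, taken after their values were seen, several code for transcription factors known from development. Foxc1 was at 7116 against 1429, 1487, 1359.6, 1479 and 1264, the amplified tumours lying close together, Foxq1 at 2448 against 92.5, 13.6, 119, 129 and 37.4 and Hopx, a homeodomain protein without DNA binding, at 831 against 14.4, 6.30, 7.46, 38.9 and 29.6. Pax6, Foxa2, Dlx6 and En2 were at 218, 314, 67.8 and 752, against at most 2.58, 3.86, 0.93 and 14.8. Foxa2, and Apobec2 among the genes with the widest gaps, were called by edgeR but not by DESeq2. Satb1, a chromatin organiser, was at 13.1 against 787, 1041, 1314, 372 and 827. Gab1, the docking protein that links receptor tyrosine kinases to PI3K and SHP2, was at 6692 against 1376, 1273, 1519.9, 1311 and 1501 (log2 fold change 2.28 ± 0.32, edgeR adjusted p = 0.036, and up to 0.103 with an amplified tumour other than MS1218.2 left out), and the phosphatase gene Ptpre at 82.1 against 1010.2, 1478, 1463, 1298 and 1136. Alcam, an adhesion molecule, and Edn1, for endothelin-1, were at 10991 and 884, against at most 1236 and 52.8.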
